A study of Mus musculus with 9 samples.

Results

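The genes described are the signalling adaptors and proximal kinases through which natural killer (NK) cell receptors act: the adaptors Cd247, Fcer1g, Tyrobp and Hcst, the CD3 chains Cd3d, Cd3e and Cd3g, and the kinases Syk, Zap70 and Lck. They were chosen by symbol, through the mouse Entrez identifier of each row, and all 10 were found among the 27179 genes of the count files. RNA sequencing was done on splenic NK cells of C57BL/6 mice, in a series on ID2, a helix-loop-helix protein without a DNA-binding domain, and on how strongly NK cells respond to the cytokine interleukin-15 (IL-15). The cultured groups were Id2-null cells (3 libraries) and wild-type cells (WT, 3 libraries), both isolated from spleen and kept in IL-15 for 7 days. The sorted groups were the wild-type populations named Immature, M1 and M2, 1 library each, with RNA taken directly after sorting. The labels give no other treatment. The sources used here state neither the means of Id2 deletion nor the sorting markers, nor how many animals there were, of what age or sex. The labels state culture by sample number without numbering the samples, and the numbers were read in listed order.

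Many activating NK cell receptors lack signalling motifs of their own and pair in the membrane with short adaptor proteins. Most of these adaptors carry an immunoreceptor tyrosine-based activation motif (ITAM), a tyrosine followed at a short distance by a leucine or isoleucine, with the same pattern repeated further along. Src family kinases such as LCK phosphorylate the tyrosines, and the paired ITAM then binds SYK or ZAP70, whose tandem SH2 domains fit it. Hcst encodes DAP10, which has no ITAM and instead carries a tyrosine motif that recruits phosphoinositide 3-kinase (PI3K).

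The coding DNA of these motifs is printed because it shows what separates the members as signalling parts. Each run was read from GENCODE vM21 transcripts on GRCm38, 5′ to 3′ on the coding strand, with capitals on the codons of the motif: tyrosine and leucine or isoleucine in the ITAMs, and tyrosine, asparagine and methionine in Hcst. Cd247, the CD3 zeta chain, held 3 ITAMs (chr1:165856451-165857454, chr1:165858473-165859260 and chr1:165859819-165861042, plus strand). Fcer1g, the common Fc receptor gamma chain, held 1 (chr1:171229889-171230072, minus strand), as did Tyrobp, which encodes DAP12 (chr7:30415670-30417382, plus strand). Each ITAM was read across a splice junction, so these spans include an intron.
Cd247 ITAM 1: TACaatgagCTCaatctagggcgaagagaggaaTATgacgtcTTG
Cd247 ITAM 2: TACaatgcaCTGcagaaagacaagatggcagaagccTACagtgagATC
Cd247 ITAM 3: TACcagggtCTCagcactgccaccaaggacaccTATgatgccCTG
Fcer1g ITAM: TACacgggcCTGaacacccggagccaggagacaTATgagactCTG
Tyrobp ITAM: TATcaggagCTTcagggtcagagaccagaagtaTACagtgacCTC
The PI3K-binding motif of Hcst lay within 1 exon (chr7:30417821-30417832, minus strand) and was the only motif of either kind found in its coding sequence.
Hcst PI3K motif: TACatcAACATG
The CD3 chains, which couple the T cell receptor to signalling, held 1 ITAM each: Cd3d at chr9:44986095-44986311 on the plus strand, Cd3e at chr9:44999549-45000440 and Cd3g at chr9:44970735-44971268, both on the minus strand.
Cd3d ITAM: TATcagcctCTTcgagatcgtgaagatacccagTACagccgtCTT
Cd3e ITAM: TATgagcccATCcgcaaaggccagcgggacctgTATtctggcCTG
Cd3g ITAM: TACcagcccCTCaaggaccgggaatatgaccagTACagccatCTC
Syk, Zap70 and Lck were not searched for either motif, and the PI3K-binding motif was sought in Hcst alone. Tyrobp and Hcst are direct neighbours on opposite strands, with 129 bases between them, and Cd3g, Cd3d and Cd3e stand in a row on chromosome 9 with gaps of 1337 and 11682 bases.

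Library totals ran from 4128414 to 4831831 counts. A count of 0 allows up to 3 counts, or 0.621 to 0.727 CPM (counts scaled to library size), and no member came near that floor. Reads carry no molecular identifiers, so intervals and floors cover counting error only. All 9 NK cell markers listed, among them Ncr1 and Klrb1c, stood at 1 CPM or more in every library. Their summed level was 7259 to 7754 CPM in Id2-null and 9316 to 11550 CPM in WT. Gzma was lower in Id2-null (156 to 735 against 2971 to 4931 CPM), Eomes was higher (504 to 533 against 420 to 492.5 CPM), and the other markers overlapped. Id2 had 44 to 113 counts in the Id2-null libraries and 1925 to 1958 in WT. Xist, the female X-inactivation RNA, had 3109 to 4286 counts in Id2-null and 1 to 6 in WT, the Y-linked Ddx3y had 1 to 3 against 355 to 377, and each sorted library held counts of both (Xist 361 to 499, Ddx3y 148 to 192). Sex and genotype therefore cannot be told apart in the cultures. Replicates differed by more than counting noise, replicate 3 of each genotype most (chi-square per gene 13.56 to 28.61 with its group against 5.09 and 6.14 for the other pairs). The labels do not tie replicates to separate mice or cultures, so each p-value reflects library-to-library spread alone, and that spread may be technical.

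Per kilobase of gene length, Tyrobp and Fcer1g were the most abundant members in every group, and Lck came next. Levels between genes are compared as RPKM, which is CPM per kilobase of the gene length in the files, with CPM scaled by the trimmed mean of M-values (TMM). Tyrobp stood at 1041 ± 146 RPKM in Id2-null and 880 ± 25.02 RPKM in WT (SD, n = 3 each), and at 2490, 2894 and 3380 RPKM in Immature, M1 and M2. Fcer1g stood at 763 ± 126 RPKM in Id2-null, 984 ± 93.9 RPKM in WT, and 1205, 1773 and 2204 RPKM in the sorted libraries. Lck followed them throughout, at 308 ± 39.6 RPKM in Id2-null, 233 ± 12.3 RPKM in WT and 475 to 523 RPKM in the sorted libraries. In CPM, which favours long genes, Lck (708 CPM) was above Tyrobp (592 CPM) and Fcer1g (502 CPM) in Id2-null, above Tyrobp in WT (535 against 501 CPM), and above Fcer1g in Immature and M1. Below Lck, Hcst and Zap70 were near each other in culture: Hcst had 127 ± 11.5 and Zap70 138 ± 23.6 RPKM in Id2-null, and 141 ± 31.6 and 119 ± 16.3 RPKM in WT, in each case less apart than the larger SD. In the sorted libraries Hcst was well above Zap70 (328 to 416 RPKM against 87.0 to 119 RPKM). Cd247 had 40.5 ± 4.76 RPKM in Id2-null, 32.3 ± 5.26 RPKM in WT, and 59.4, 69.8 and 78.0 RPKM in Immature, M1 and M2. Syk had 26.7 ± 5.59 RPKM in Id2-null, 16.8 ± 0.831 RPKM in WT, and 47.3, 73.1 and 58.1 RPKM in the sorted libraries. Both lay below Zap70 in every group on this scale, and above the CD3 chains in M1 and M2. In CPM Cd247 was above Zap70 in Immature, M1 and M2 (273, 321 and 359 against 259, 243 and 190 CPM), so that order depends on the lengths used.

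**Figure D1:**
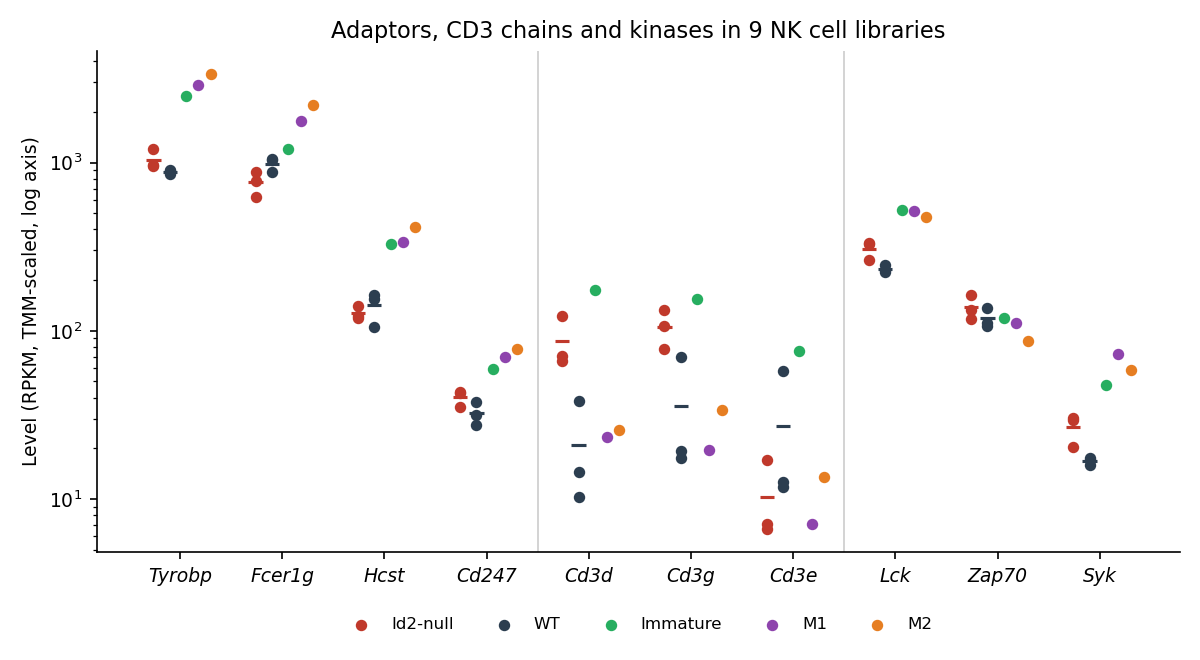
Level of each of the 10 genes in RPKM (TMM-scaled, log axis), by library. Points are single libraries coloured by group, and short lines are means of the 3 Id2-null or 3 WT libraries. Tyrobp, Fcer1g and Lck lie highest, and the CD3 chains are the members that spread most between groups.

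Among the 4 adaptors, Tyrobp gave the largest share of counts per kilobase in Id2-null and sorted cells and Fcer1g in WT cultures. The Tyrobp share was 61.0% in Immature (95% interval 60.1 to 61.9), 57.0% in M1 (56.2 to 57.8) and 55.6% in M2 (54.8 to 56.4), by exact binomial limits with the mix of the other adaptors held fixed. It was 52.8 ± 6.99% in Id2-null (47.7 to 60.7%) and 43.2 ± 1.21% in WT (42.3 to 44.6%), so the genotypes did not overlap. Fcer1g took 38.7 ± 6.46% in Id2-null and 48.2 ± 2.37% in WT. The ratio of Tyrobp to Fcer1g per kilobase was 1.23, 1.08 and 1.93 in Id2-null replicates 1 to 3 and 0.847, 0.876 and 0.973 in WT replicates 1 to 3, where the interval of WT replicate 3 (0.922 to 1.03) includes equal levels. This ratio was chosen after its values were seen and was not tested. In undivided counts Id2-null replicate 2 had fewer Tyrobp than Fcer1g counts (2555 against 2732), so there the order depends on the lengths used. Hcst took 6.47 ± 0.707% in Id2-null and 6.96 ± 1.65% in WT. Cd247, with its 3 ITAMs, took 2.06 ± 0.264% and 1.58 ± 0.177%. That share rests on a deposited length of 4604 bases that merges several transcripts: with the 1632 bases of the principal GENCODE transcript it came to 5.61% and 4.37%.

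Zap70 exceeded Syk per kilobase in all 9 libraries, by much more in culture than after sorting. The Zap70 share of the pair was 83.8 ± 2.004% in Id2-null and 87.5 ± 1.01% in WT, against 71.5% in Immature (95% interval 69.6 to 73.3), 60.3% in M1 (58.4 to 62.2) and 59.97% in M2 (57.7 to 62.1). The Zap70 to Syk ratio was 4.42, 5.52 and 5.79 in Id2-null replicates 1 to 3, and 6.70, 7.80 and 6.57 in WT replicates 1 to 3. All Id2-null libraries lay below all WT libraries, a difference of −0.43 on the log2 scale. An exact two-sided permutation test gave p = 0.1, the smallest that 3 against 3 allows, and 0.167 after adjustment over the 5 ratios tested. In counts not divided by length, Syk exceeded Zap70 in M1 and M2, so in these libraries the order rests on the length correction. Lck exceeded Fyn, the other abundant Src family kinase, in every library, with a geometric mean ratio of 2.59 in Id2-null and 2.62 in WT (exact permutation p = 1.0). The direction of that small difference changed when Id2-null replicate 1 or WT replicate 3 was left out (log2 0.07 and 0.10 against −0.01 with all libraries).

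**Figure D2:**
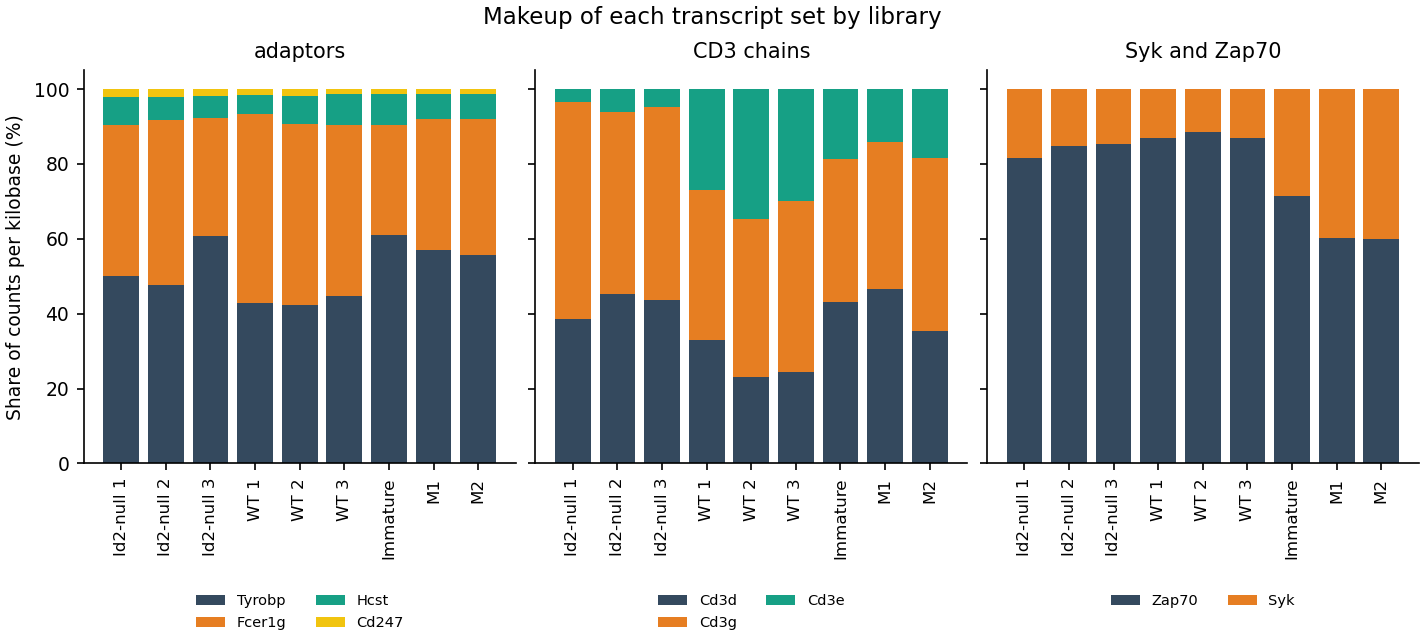
Share of counts per kilobase (%) of each gene within the 4 adaptors, the 3 CD3 chains and the pair Syk and Zap70, 1 bar per library. Tyrobp and Fcer1g fill most of each adaptor bar, Cd3e is a thin band in the Id2-null libraries (4.85% on average against 30.5% in WT), and Syk widens in the sorted libraries.

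Between Id2-null and WT cultures, 0 of the 10 members passed edgeR's quasi-likelihood test at an adjusted p under 0.05, where 3.42% of 11022 tested genes did (1.91% higher and 1.52% lower). All 10 passed the filter on low counts. At an unadjusted p under 0.05 there were 5 members, where 14.6% of tested genes were. In 5 members (Tyrobp, Cd3d, Cd3g, Syk and Lck) every Id2-null library lay above every WT library, against 9.93% of all tested genes, and in 0 below, against 10.5% (20.4% in either direction). The members' median log2 fold change was 0.29, beside 0.01 over all tested genes. DESeq2 called 2 of them higher (Cd3d and Syk) and limma voom 1 (Cd3d), and neither tool called any lower. DESeq2 called 2.87% of genes higher and 2.4% lower, and voom 1.58% and 1.35%. With the replicate number as a block, 2 members rose (Cd3d and Syk) and 1 fell (Cd3e), where 4.1% and 3.47% of genes were called higher and lower (7.58% in all). That block was read from these same counts and not from the labels, which limits every blocked p-value.

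The adaptors showed modest differences in both directions, of which none was called. Tyrobp had 548, 540 and 688 CPM in Id2-null replicates 1 to 3 and 505, 513 and 485 CPM in WT, so all Id2-null libraries were higher, replicate 3 by most (log2 fold change 0.25, SE 0.13, adjusted p = 0.459). Fcer1g had 514, 578 and 413 CPM in Id2-null and 689, 677 and 577 CPM in WT. The groups met at Id2-null replicate 2 and WT replicate 3, and the log2 fold change was −0.36 (SE 0.15, adjusted p = 0.32). Cd247 had 200.5, 198 and 161 CPM in Id2-null and 145, 175 and 127 CPM in WT, overlapping at WT replicate 2 (log2 0.33, SE 0.15, adjusted p = 0.364). Hcst had 62.1, 54.1 and 52.6 CPM against 46.5, 72.2 and 68.7 CPM, with WT spread around the Id2-null values (log2 −0.15, SE 0.18, adjusted p = 0.791). As bulk libraries, they cannot tell fewer cells of a type from less RNA per cell. Relative to each other, Cd247 per kilobase was 0.0533 of Fcer1g in Id2-null and 0.0327 in WT by geometric mean, with no overlap between genotypes (log2 difference 0.71, exact permutation p = 0.1, adjusted 0.167). Tyrobp over Hcst was 8.14 and 6.34, with overlap (exact permutation p = 0.3, adjusted 0.375).

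Cd3d and Cd3g were higher in Id2-null cultures while their neighbour Cd3e was on average lower, the largest differences among the members, with a wide spread. Cd3d had 94.2, 164 and 87.7 CPM in Id2-null replicates 1 to 3 and 19.2, 50.8 and 13.7 CPM in WT, so every Id2-null library was higher (log2 fold change 2.06, SE 0.56, adjusted p = 0.164). Cd3g had 109, 135 and 80.0 CPM in Id2-null and 17.9, 71.8 and 19.6 CPM in WT, again without overlap but close at WT replicate 2 (log2 1.57, SE 0.61, adjusted p = 0.335). Cd3e had 9.46, 24.5 and 10.2 CPM against 16.9, 82.4 and 18.1 CPM, overlapping at Id2-null replicate 2 (log2 −1.40, SE 0.81, adjusted p = 0.541). Replicate 2 was the highest of its genotype for all 3 chains, in both genotypes. With the replicate block, read from these same counts, Cd3d rose by 2.19 (SE 0.19, adjusted p = 0.00142) and Cd3e fell by 1.19 on the log2 scale (adjusted p = 0.0159). Cd3g stayed above the threshold with the block (log2 1.80, adjusted p = 0.125). Without WT replicate 2, Cd3d (log2 2.82, adjusted p = 0.0211) and Cd3g (log2 2.52, adjusted p = 0.0066) were called, and without replicate 2 of both genotypes the adjusted p was 0.0171 and 0.0183. Leaving out any other single library gave 0.259 to 0.443 for Cd3d and 0.411 to 0.603 for Cd3g.

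The Cd3d to Cd3e ratio separated the genotypes more widely than any single chain did. Per kilobase it was 10.8, 7.21 and 9.28 in Id2-null replicates 1 to 3 and 1.23, 0.665 and 0.816 in WT, and 2.33, 3.29 and 1.92 in Immature, M1 and M2. Thus Cd3d outweighed Cd3e in all Id2-null and sorted libraries. Counting intervals included equal levels in WT replicates 1 (0.900 to 1.67) and 3 (0.591 to 1.12), and Cd3e outweighed Cd3d in WT replicate 2 (0.565 to 0.782). The Id2-null and WT libraries differed by 3.36 on the log2 scale (exact permutation p = 0.1, the smallest possible, adjusted 0.167), and by 3.16 to 3.61 when any replicate was left out. Cd3g held the largest share of the 3 chains in both cultured groups (52.7 ± 4.76% in Id2-null, 42.7 ± 2.78% in WT) and in M2 (46.3%), and Cd3d in Immature (43.2%) and M1 (46.6%). This order depends on the lengths used. In undivided counts Cd3d led in Id2-null (48.1% against 45.97% for Cd3g), and Cd3e and Cd3g were level in WT (35.6% and 35.5%). With principal transcript lengths Cd3g led Cd3d in Immature (41.5% against 38.6%) and M1 (42.9% against 41.9%). Cd3e had the smallest share in Id2-null and sorted cells on each of the 3 scales.

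**Figure D3:**
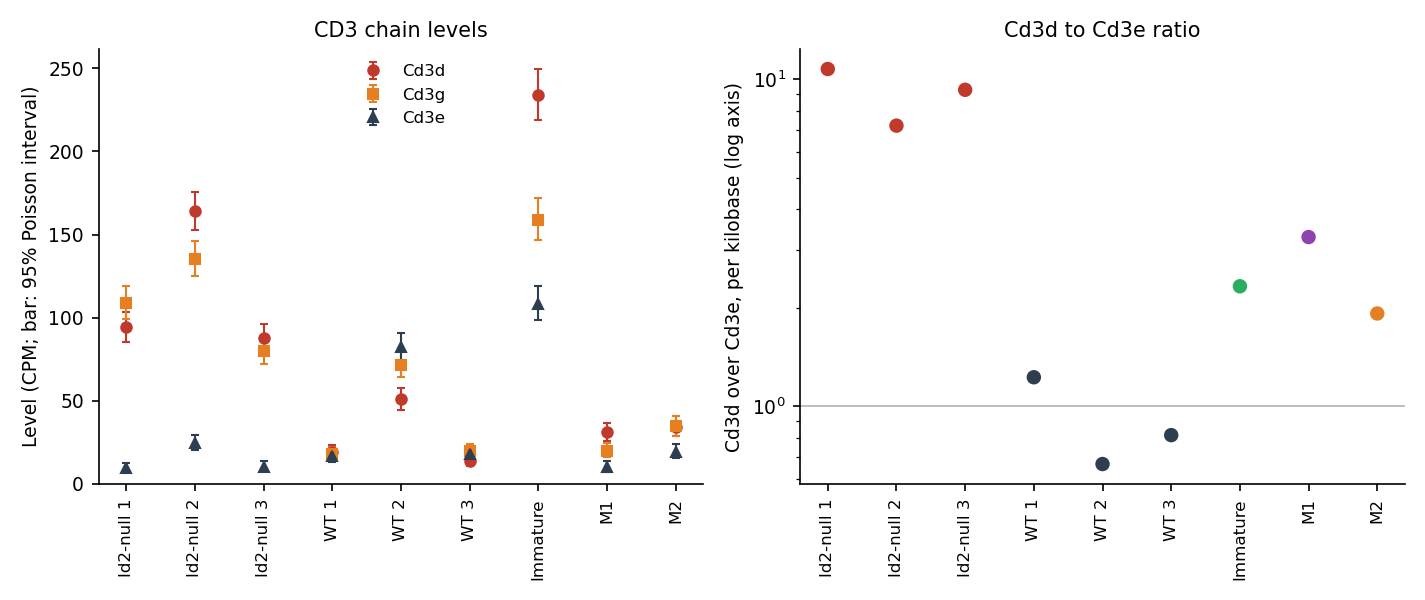
Left, CPM of Cd3d, Cd3g and Cd3e by library with 95% Poisson intervals (counting error only). Right, Cd3d over Cd3e per kilobase by library (log axis, the line marks equal levels): the Id2-null libraries sit at 7.21 to 10.8 and the WT libraries at 0.665 to 1.23.

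T cell transcripts moved in part with the CD3 chains, and their part in the result was not tested. Over 13 T cell markers the summed level was 739 to 1034 CPM in Id2-null and 634 to 761 CPM in WT, with 7 or 8 markers at 1 CPM or more in each. Cd4 had 0 counts in all 6 cultures, and Cd5, Cd6, Cd8b1 and Themis had at most 3. Trac, the constant segment of the T cell receptor alpha chain, had 4.28 to 6.13 CPM in Id2-null and 4.24 to 13.5 CPM in WT, highest in WT replicate 2. Trgc1, a gamma chain constant segment, had 48.1 to 71.8 CPM in Id2-null and 13.3 to 33.3 CPM in WT, also highest of WT in replicate 2. Most of the sum lay in Trbc1, Trbc2, Trdc and Cd28. Trbc1 (250.5 to 443 CPM in Id2-null, 265 to 282 CPM in WT), Trbc2 (100 to 209.5 against 97.5 to 129 CPM) and Trdc (140 to 167 against 106.5 to 168 CPM) overlapped. Cd28 was higher in Id2-null (161 to 184 against 101 to 137 CPM), and Bcl11b was lower (5.07 to 10.61 against 10.62 to 14.6 CPM). Of 8 B cell markers Ighm alone was high (690 to 1046 CPM in Id2-null, 117 to 167 CPM in WT), while Ms4a1 had 0 counts in all 6 cultures.

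The 250 bases before the start sites of the CD3 genes are printed, a choice made after their genotype values were seen. ID proteins act by holding E proteins off the DNA letters called E-boxes. RefSeq sequence of GRCm38.p6 was searched for CAGCTG, which reads the same on both strands, and for CAGGTG with its complement CACCTG, and matches are in capitals. No match overlapped another. Of 32851 RefSeq promoters of this length, 27.7% held at least 1 match and 5.21% held 2 or more. Cd3g (chr9:44980432-44980681, minus strand) held 2, Cd3d (chr9:44981536-44981785, plus strand) held 1, and Cd3e (chr9:45009612-45009861, minus strand) held 0 in this window. Other forms of E-box were not searched, so a window with 0 matches may still hold E-boxes.
Cd3g: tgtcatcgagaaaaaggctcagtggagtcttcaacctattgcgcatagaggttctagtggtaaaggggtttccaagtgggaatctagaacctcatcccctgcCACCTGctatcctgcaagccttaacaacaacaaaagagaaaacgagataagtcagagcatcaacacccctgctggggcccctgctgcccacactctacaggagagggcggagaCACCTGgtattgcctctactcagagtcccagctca
Cd3d: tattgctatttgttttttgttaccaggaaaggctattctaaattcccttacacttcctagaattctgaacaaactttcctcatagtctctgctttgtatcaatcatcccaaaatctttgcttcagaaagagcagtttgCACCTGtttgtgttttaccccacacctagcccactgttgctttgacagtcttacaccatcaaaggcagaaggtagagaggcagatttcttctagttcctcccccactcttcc
Cd3e: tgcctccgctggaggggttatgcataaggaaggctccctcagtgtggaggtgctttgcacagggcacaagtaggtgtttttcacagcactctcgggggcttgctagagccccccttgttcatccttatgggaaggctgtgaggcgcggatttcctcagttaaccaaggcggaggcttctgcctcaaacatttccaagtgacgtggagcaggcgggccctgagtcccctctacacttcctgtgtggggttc
The matches began 148 and 35 bases before the Cd3g start and 112 bases before the Cd3d start. Of the other members, Zap70 held 2, 0 and 1 at its 3 start sites and Cd247 held 1, both with overlapping genotypes. Syk held 1 at each of 2 start sites, Lck 0 and 1 at 2, and Fcer1g and Hcst 0. No promoter of Tyrobp, for which every Id2-null library lay above every WT library, was among those searched. The matches are of letters, binding was not measured, and a link between matches and levels was not tested.

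Of the kinases, Syk and Lck were higher in every Id2-null library than in any WT library, and neither was called by edgeR with genotype alone, TMM scaling and the filter on low counts. Syk, the kinase shared by NK, B and myeloid cells, had 159, 156 and 107 CPM in Id2-null replicates 1 to 3 and 84.0, 92.6 and 89.5 CPM in WT. WT was tight and Id2-null replicate 3 lay closest to it (log2 fold change 0.67, SE 0.16, adjusted p = 0.0696). The adjusted p was 0.0187 in DESeq2, 0.0497 when edgeR scaled by library size and 0.028 without the expression filter. With the replicate block Syk rose by 0.65 (SE 0.14, adjusted p = 0.0301), and without Id2-null replicate 3 the adjusted p was 0.00148 (log2 0.83). Leaving out any other single library gave 0.173 to 0.293. Lck had 755, 766 and 603 CPM in Id2-null and 527, 567 and 512 CPM in WT, once more with Id2-null replicate 3 nearest to WT (log2 0.41, SE 0.13, adjusted p = 0.172, and 0.0212 without that library). Without any other single library the adjusted p of Lck was 0.314 to 0.472. Zap70, the SYK relative known from T cells, had 291, 357 and 256 CPM in Id2-null and 233, 299 and 243 CPM in WT, with overlap (log2 0.23, SE 0.16, adjusted p = 0.603). Among markers of B and myeloid cells, which also express Syk, Lyz2, S100a8, S100a9, Ms4a1 and Pax5 had 0 counts in all 6 cultures, Itgax had 342 to 572 CPM, and Ighm was higher in Id2-null as given above. Their part in the Syk levels was not tested.

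**Figure D4:**
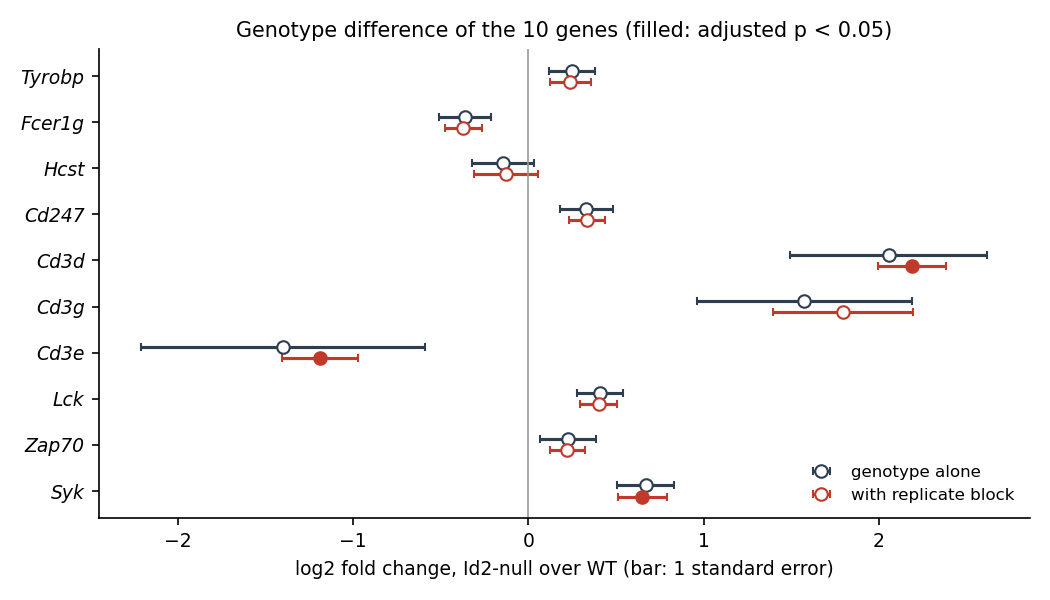
Log2 fold change of Id2-null over WT for each gene, with bars of 1 standard error, from the edgeR fit with genotype alone (dark) and with the replicate block (red). Filled points have an adjusted p under 0.05: none with genotype alone, and Cd3d, Syk and Cd3e with the block. The block was read from the same counts and not from the labels.

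Sorted wild-type cells carried more of most members than WT cultures. In 6 members (Cd247, Fcer1g, Tyrobp, Hcst, Syk and Lck) all 3 WT cultures lay below all 3 sorted libraries, against 33.8% of 12326 genes, and in 0 above, against 31%. Tyrobp averaged 501 CPM in the WT cultures and 1662 CPM over the sorted libraries, Syk 88.7 and 314 CPM, Lck 535 and 1157 CPM, and Hcst 62.5 and 159.5 CPM. Cd247 averaged 149 and 318 CPM, and Fcer1g 647.5 and 1137 CPM. Zap70 did not separate (258 and 230.2 CPM), nor did the CD3 chains. The sorted libraries are different populations, so these are values side by side with no test.

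Most myeloid and basophil transcripts stood higher in the sorted libraries, and their part in the levels of Tyrobp, Fcer1g and Syk, which such cells also express, was not tested. Of 12 myeloid markers 11 or 12 reached 1 CPM in each sorted library and 2 or 3 in each culture. Their summed levels were 1202, 1390 and 1953 CPM in Immature, M1 and M2 and 363.5 to 593 CPM in the cultures. Itgax alone gave most of the sum in Immature (960 CPM), M1 (1130 CPM) and every culture (342 to 572 CPM), and 837 CPM of it in M2. Lyz2, the lysozyme of macrophages and neutrophils, had 56.8, 60.1 and 231 CPM in Immature, M1 and M2. Over the 6 mast cell and basophil markers the sum was not higher after sorting (377, 286 and 330 CPM against 270.5 to 635 CPM in culture), with Kit at 318, 160 and 57.4 CPM against 240 to 633 CPM. Basophil Mcpt8 had 25.98, 59.1 and 147 CPM there and 2.24 to 27.7 CPM in culture, and Fcer1a, which pairs with Fcer1g in the IgE receptor, had 6.37, 15.7 and 35.3 CPM against 0 counts in culture. B cell Ms4a1 had 4.07, 5.79 and 24.3 CPM in the sorted libraries.

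The CD3 chains were several-fold lower in M1 and M2 than in Immature, and the other members differed by less than 2-fold between these libraries. With 1 library each there is no replicate check, and intervals are exact 95% limits for counting error. Cd3d had 234, 30.9 and 34.3 CPM in Immature, M1 and M2, Cd3g 159, 20.02 and 34.6 CPM, and Cd3e 109, 10.1 and 19.3 CPM, so the Immature library was the highest of the 3 for each chain. M1 held 0.132 of the Immature level for Cd3d (0.109 to 0.159), 0.126 for Cd3g (0.0990 to 0.159) and 0.0934 for Cd3e (0.0663 to 0.128). These 3 were the members over 2-fold lower in M1, where 2.65% of 8598 genes were (1.37% were over 2-fold higher), and in M2 against Immature (4.16% of 8720 genes lower, 4.95% higher). From M1 to M2 no member passed 2-fold (2.52% of 8575 genes higher, 1.08% lower), Cd3e coming nearest at 1.90 (1.29 to 2.84). T cell markers were also highest in Immature as a sum (1125 CPM, against 560 CPM in M1 and 533 CPM in M2), led by Trdc, the delta chain constant segment (337, 105 and 84.95 CPM). All 13 were at 1 CPM or more in each sorted library, with Trac at 40.5, 15.9 and 27.6 CPM and Cd5 at 10.7, 4.10 and 8.52 CPM. Others were highest in M2: Cd4 had 4.58, 4.58 and 11.03 CPM and Cd8a 7.13, 6.27 and 13.0 CPM, and Cd8b1, Cd6 and Themis had the same maximum. Their part in the CD3 levels was not tested.

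The 4 adaptors were higher in M2 than in Immature. Fcer1g had 793, 1167 and 1450 CPM in Immature, M1 and M2, a ratio of M2 to Immature of 1.83 (1.75 to 1.91), the widest of the adaptors. Tyrobp had 1417, 1647 and 1923 CPM (ratio 1.36, interval 1.31 to 1.41), Cd247 273, 321 and 359 CPM (ratio 1.31, interval 1.21 to 1.42), and Hcst 145, 150 and 184 CPM (ratio 1.27, interval 1.14 to 1.42). The order in all 4 was Immature, M1, M2, although for Hcst the interval of M1 over Immature (0.920 to 1.16) includes 1. The kinases differed from this. Syk was highest in M1 (249, 386 and 306 CPM, with M1 over Immature 1.55, interval 1.43 to 1.68), Zap70 was lowest in M2 (259, 243 and 190 CPM, with M2 over Immature 0.734, interval 0.667 to 0.807), and Lck changed little (1202, 1176 and 1093 CPM, with M2 over Immature 0.909, interval 0.872 to 0.948).

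Around the members, edgeR called 6 of the 87 tested receptors and signalling genes between Id2-null and WT cultures (6.9%, against 3.42% of all tested genes). The lists were chosen with earlier results of these data known, which may shape that share, and the difference was not tested. Among all tested genes 1.91% were called higher and 1.52% lower. Of the 14 receptors, 1 rose and 0 fell (median log2 0.12). The riser was Cd2, an adhesion and costimulatory receptor, with 212, 231 and 155 CPM in Id2-null and 76.7, 105 and 71.6 CPM in WT (log2 1.25, SE 0.20, adjusted p = 0.0127). DESeq2 and voom also called Cd2 alone. When libraries were left out singly, its adjusted p was 0.0647 and 0.0545 for Id2-null replicates 1 and 2 and 0.0894 for WT replicate 1. Under the block 2 receptors rose (Cd2 and Crtam) and 2 fell (Cd226 and Klra4), where 4.1% and 3.47% of all tested genes did. Klra4 belongs to the Ly49 family, whose near-identical copies can share reads.

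Of 13 Src family kinases and their regulators, 10 were tested and edgeR called 0 (4 at unadjusted p under 0.05, median log2 −0.03), DESeq2 1 (Fgr, lower) and voom 0. Of all tested genes, 14.6% had an unadjusted p under 0.05 in edgeR, and DESeq2 called 2.4% lower. Ptprc, which encodes the CD45 phosphatase that activates Src kinases, had 3608 to 4095 CPM in Id2-null and 2656 to 3041 CPM in WT, without overlap (log2 0.39, adjusted p = 0.149). Fyn, a Src kinase that acts beside LCK, had 523, 443 and 358 CPM against 379, 346 and 268 CPM, with overlap (log2 0.42, adjusted p = 0.33), and was called higher under the block (adjusted p = 0.0385). Lyn, a Src kinase best known from B and myeloid cells, had 57.5 to 66.9 CPM against 62.8 to 76.9 CPM (log2 −0.15, adjusted p = 0.671). With the block Fgr and Pag1 fell (adjusted p = 0.0132 and 0.00654), where 3.47% of all tested genes did and 4.1% rose.

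Among 44 downstream adaptors and enzymes, 41 were tested, 0 rose and 2 fell in edgeR (9 at unadjusted p under 0.05, median log2 −0.01), beside 3 and 3 in DESeq2 and 0 and 1 in voom. In edgeR 1.52% of all tested genes were called lower and 14.6% had an unadjusted p under 0.05. DESeq2 called 2.87% of genes higher and 2.4% lower here, and voom 1.58% and 1.35%. Malt1, a protease of the pathway that leads to NF-kappaB, had 152, 135 and 134 CPM in Id2-null and 248, 260 and 217 CPM in WT (log2 −0.78, SE 0.12, adjusted p = 0.0111), and its adjusted p became 0.0566 when Id2-null replicate 2 was left out, 0.0686 for WT replicate 1 and 0.0558 for WT replicate 2. Ppp3ca, a catalytic subunit of calcineurin, had 53.7 to 60.04 CPM against 75.3 to 95.1 CPM (log2 −0.59, SE 0.13, adjusted p = 0.046, with 0.0626 when scaled by library size and 0.0613 in voom). That call held only without Id2-null replicate 3 (0.0372) among the 6 fits with 1 library left out, the others giving 0.182 and 0.107 without Id2-null replicates 1 and 2, and 0.181, 0.0682 and 0.146 without WT replicates 1 to 3. The scaffolds Lat (log2 0.23, adjusted p = 0.717) and Lcp2, which encodes SLP-76 (log2 0.07, adjusted p = 0.857), overlapped between genotypes. Under the block 3 of this list rose (Grap, Skap1 and Tec) and 3 fell (Malt1, Ppp3ca and Plcg1), against 4.1% and 3.47% of all tested genes.

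Of 19 negative regulators, all tested, 3 rose and 0 fell in edgeR (8 at unadjusted p under 0.05, median log2 0.11) and in voom, and 4 and 1 in DESeq2. Over all tested genes edgeR called 1.91% higher and 1.52% lower, and 14.6% had an unadjusted p under 0.05. For DESeq2 the shares were 2.87% and 2.4%, and for voom 1.58% and 1.35%. Lax1, a membrane adaptor that restrains antigen receptor signalling, had 466, 372.5 and 393.5 CPM in Id2-null and 158, 195 and 176 CPM in WT (log2 1.23, SE 0.14, adjusted p = 0.00231), and was called whichever single library was left out. Dgka, the diacylglycerol kinase that limits signalling through diacylglycerol, had 517, 472 and 253 CPM against 115, 148 and 116 CPM (log2 1.72, SE 0.27, adjusted p = 0.017). Sla, which encodes the Src-like adaptor that promotes loss of receptor complexes from the surface, had 158.5, 152 and 104 CPM against 76.5, 72.0 and 52.4 CPM (log2 1.05, SE 0.20, adjusted p = 0.029). Of the 6 fits with 1 library left out, the Dgka and Sla calls held only in that without Id2-null replicate 3. Without Id2-null replicates 1 and 2 their adjusted p was 0.0588 and 0.0747 for Dgka and 0.121 and 0.117 for Sla, and without WT replicates 1 to 3 it was 0.105, 0.0558 and 0.0689 for Dgka and 0.0932, 0.105 and 0.0757 for Sla. Sla2 rose and Dok2 fell as well under the block, where 4.1% of all tested genes rose and 3.47% fell. Of 9 further ITAM or SAP family genes, 3 were expressed enough to test and 0 were called by edgeR (1 at unadjusted p under 0.05), DESeq2 or voom. The most expressed of them, Sh2d1b1 and Sh2d1a, which encode the SAP family adaptors EAT-2 and SAP, had 63.7 ± 5.92 and 35.1 ± 5.47 CPM in WT and 60.8 ± 6.13 and 52.0 ± 9.05 CPM in Id2-null (SD, n = 3).

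**Figure D5:**
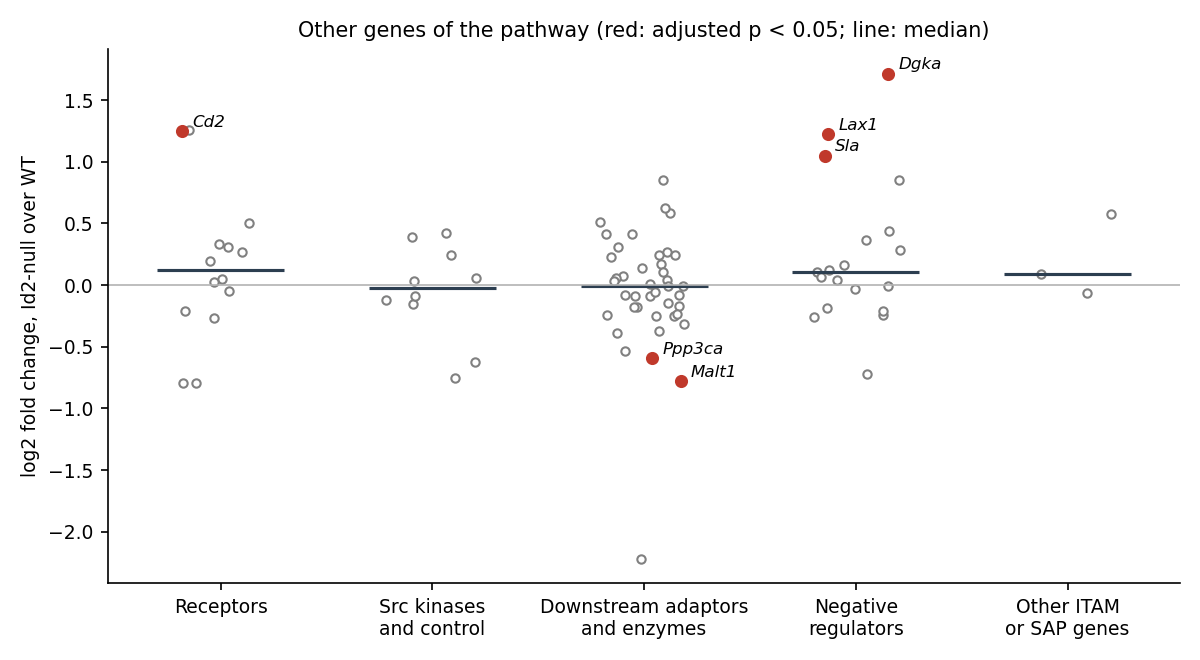
Log2 fold change of Id2-null over WT for each tested gene of the 5 pathway lists. Red points with names have an adjusted p under 0.05, open points do not, and horizontal lines are list medians (0.12, −0.03, −0.01, 0.11 and 0.09 from left to right).

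The genes most like each member over the 9 libraries were found by Pearson correlation of log2 CPM among 9096 genes with a mean of at least 10 CPM. Cd3d and Cd3g were each other's nearest gene (r = 0.957), followed by Psmb8 for Cd3d (0.952) and Klra6 for Cd3g (0.929). Cd3e stood apart, with Fars2 (0.886) and Rpsa (0.862) nearest. Lck was nearest to Sla (0.992) and AB124611 (0.990), and Syk to Ppp1r9b (0.991) and Vcl (0.990). Zap70 was nearest to Ogfr (0.954) and Rnf157 (0.939), Tyrobp to Cdc42se2 and G3bp2 (both 0.996), Fcer1g to Ndel1 (0.990) and Pxylp1 (0.989), Cd247 to Slc25a12 (0.988) and Yipf3 (0.981), and Hcst to Ube2j2 (0.990) and Nipal3 (0.986). The 9 points share the split between cultured and sorted cells, which sets much of these values for the 6 members that separate there.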

How the data were processed

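RNA sequencing of NK cells gave 1 table per library, 9 in all. The deposited files hold whole-number counts for Entrez genes and each gene's length, per the file headers. The submitters' processing notes name Subread, featureCounts, limma and the build GRCm38 (mm10). Strand setting, annotation, versions and the treatment of multiply matching reads are not given in the sources, so reads of overlapping genes (Cd247 with Pou2f1, Gm23402 and Gm32999, Zap70 with Gm18828, Lck with Mir8119) cannot be told apart. A RefSeq table of GRCm38.p6 gave symbols for 25275 of 27179 identifiers.

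The genotypes were compared by edgeR 4.0.16 (R 4.3.3). filterByExpr at a minimum count of 10 left 11022 genes, which were scaled by TMM, fitted by robust quasi-likelihood with genotype alone, and adjusted by Benjamini-Hochberg over all of them. Calls are at an adjusted p under 0.05, and "rose" and "fell" are used of called genes in that comparison. The common biological coefficient of variation was 0.209. Levels are CPM or RPKM scaled by TMM over 9 libraries (12326 genes kept). Folds between sorted libraries used genes with at least 50 counts in the higher library. Ratios between members were tested by exact permutation in scipy 1.17.1, two-sided. Scripts were tested on simulated data. Alternatives were DESeq2 1.42.0, voom in limma 3.58.1, other scaling, filter, lengths and sets of libraries. A principal transcript length, the fit without replicate 2 of both genotypes and the fit without the robust option were chosen after seeing the data.

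Same-numbered Id2-null and WT libraries deviated together from their group means (r = 0.359, 0.245 and 0.422 for numbers 1 to 3). Id2-null replicate 1 with WT replicate 2 gave 0.191, and Id2-null replicate 2 with WT replicate 1 gave 0.128. Pairs of replicate 3 with another number gave −0.404 to −0.265, so mainly replicate 3 stood out. The numbers were taken to pair the samples, from the data and not from the labels. Blocked p-values therefore rest on a block read from the same counts. The blocked value stands beside a result where it changes the call.

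The 10 genes, the pathway lists and the tests were chosen with earlier results of these data known. Named from the lists were called genes, up to 4 per list by adjusted p, or the 2 most expressed where none was called, with Fyn, Lyn, Lat and Lcp2 whatever their result, and for each of the 10 genes its 2 nearest genes by correlation. List genes named for a call under the block were chosen after seeing their values. Sequences came from GENCODE vM21 transcripts and a RefSeq promoter table of GRCm38.p6. The erythroid and platelet markers summed to at most 2.20 CPM in the cultures and 13.2 to 38.1 CPM in the sorted libraries.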

Additional observations from a re-analysis of the deposited data

How the results depend on the processing

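All 10 members kept the sign of their log2 fold change under all 15 alternatives. The number of members called higher was 0 with genotype alone and with all 9 libraries in the fit, 1 with library size as scaling, with voom and with no expression filter, and 2 with DESeq2, with the replicate block, without replicate 3 of both genotypes and without replicate 2 of both genotypes. It was 0 to 2 when each replicate was left out in turn. The number called lower was 1 with the replicate block and 0 otherwise. Syk was called in 6 alternatives, Cd3d in 5, Cd3g and Lck in 2 each and Cd3e in 1. Over all genes, 210 were called higher and 167 lower. These counts became 316 and 264 with DESeq2, 452 and 383 with the replicate block, 571 and 494 without replicate 3 of both genotypes, and 35 and 19 without replicate 2 of both genotypes, and ran from 67 to 387 and from 54 to 275 with 1 replicate left out. The cause was not tested. All 6 calls in the pathway lists (Cd2, Malt1, Ppp3ca, Lax1, Dgka and Sla) were lost without replicate 2 of both genotypes, with adjusted p from 0.0566 to 0.32.

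In counts not divided by length, the Zap70 share of Syk and Zap70 was 68.2% in Id2-null, 74.3% in WT, 50.9% in Immature, 38.6% in M1 and 38.2% in M2, since Syk is the longer gene. The Tyrobp share of the adaptors was then 44.4%, 36.9%, 53.9%, 50.1% and 49.1%, and with principal transcript lengths it was 60.03% in Immature. The log2 difference in Lck over Fyn was −0.13 to 0.10 with 1 replicate left out, positive without Id2-null replicate 1 (0.07) and without WT replicate 3 (0.10). Taking ratios within same-numbered pairs cannot change a log2 difference, because the mean of the pair differences equals the difference of the group means. The exact sign-flip test over pairs gave p = 0.25 for Cd3d over Cd3e, the smallest that 3 pairs allow. Depth limits Cd3e most, at 42 to 116 counts in 7 of the 9 libraries.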

Other observations

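Among the pathway genes, the 2 phospholipase C gamma genes, whose enzymes act next after the LAT and SLP-76 scaffolds, differed in level and in the comparison of genotypes. They were singled out after their values were seen. Plcg2 had 840 to 1237 counts in the Id2-null libraries, 1188 to 1383 in WT and 987 to 1337 in the sorted libraries. Counts of Plcg1 were 2, 11 and 4 for Id2-null replicates 1 to 3, 28, 32 and 24 for WT, and 33, 28 and 50 in Immature, M1 and M2, so every Id2-null library was lower. In edgeR the log2 fold change of Plcg1 was −2.22 (SE 0.52, adjusted p = 0.0597), with an adjusted p of 0.0178 under the replicate block, and that of Plcg2 was −0.23 (SE 0.18, adjusted p = 0.638). The difference between the genes was not tested.

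Dgka, called higher in Id2-null cultures, had 266, 187 and 131 CPM in Immature, M1 and M2, with Immature the highest as for the CD3 chains. Cd2 had 517 to 598 CPM in the sorted libraries, above every culture of either genotype, and Lax1 had 198 to 227 CPM there, below every Id2-null culture and above every WT culture.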
